A study of Mus musculus with 2 samples.

Results

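The tumour suppressor p53, encoded by Trp53, and 9 of its target genes were followed through the islet cells of wild type and miR-503 transgenic mice. The members, Trp53, Mdm2, Plk2, Phlda3, Gadd45a, Gadd45b, Xpc, Ccng1, Gdf15 and Bax, were matched by symbol to single rows of the gene table, and all 10 were found among its 27998 genes. Islets of C57BL/6 mice at postnatal day 70 gave 1 droplet library from wild type mice and 1 from mice carrying a transgene for the microRNA miR-503, labelled as specific to beta cells. Both libraries were made from islet cells dissociated with trypsin and EDTA. The promoter that drives the transgene and the number of mice behind each library are not given in the sources used here. Mature miR-503 is not measured by this assay, which counts transcripts at their polyadenylated end. With 1 library for each genotype there is no replicate check: every interval given here covers counting error only, and no p-value was computed.

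p53 is a transcription factor that is held low in unstressed cells by Mdm2, a ubiquitin ligase whose own gene p53 switches on, so that the pair forms a feedback loop. DNA damage and other stresses free p53, which then raises genes for cell cycle arrest, DNA repair, cell death and the dampening of growth signals. In islets the pathway is studied for beta cell senescence and loss of beta cells, and its arrest arm runs through Cdkn1a, which encodes the cell cycle inhibitor p21. Many of these targets also answer to other signals, Plk2 and Gadd45b among them, so a change in a target is not by itself a change in p53 activity.

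The sequences shown are the microRNA and 3 promoters, those of Ccng1, Plk2 and Phlda3. The mature miR-503-5p, from RefSeq on GRCm38.p6 (chrX:53054027-53054049, minus strand), is shown with its seed, bases 2 to 8, in capitals.
mmu-miR-503-5p: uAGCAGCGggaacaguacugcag
The 3′ untranslated regions of the 10 members were searched on the sense strand for the 7 bases that pair with this seed (CGCTGCT) and for the 6 bases that pair with bases 2 to 7 followed by A (GCTGCTA). None of the 10 held either run of letters, while 2723 of 20728 genes (13.1%) did, at a median annotated length of 1096 bases. Members' regions ran from 150 bases in Gdf15 to 2316 bases in Ccng1.

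Promoter windows from RefSeq on the same build cover 250 bases before and 50 bases after the annotated start. Of the 10 members, 9 had a window. The p53 half-site, the decamer to which 2 p53 subunits bind, was searched by its consensus on both strands and was found in 5 of the 9 (Trp53, Mdm2, Gadd45a, Ccng1 and Bax) and in 8.36% of 32851 windows. A full p53 site needs a pair of half-sites, so a single match is a description of letters only. The cAMP response element, TGACGTCA, an 8-base palindrome bound by activity-driven factors and holding the shorter TGACG, was found in Plk2 alone among the 9 and in 1.79% of all windows. Capitals mark the half-site in Ccng1, at position -185 from the start, and the response element in Plk2, at position -62. The Phlda3 window held none of these letters. The windows lie at chr11:40755237-40755536 (minus strand), chr13:110394794-110395093 (plus strand) and chr1:135765835-135766134 (plus strand).
Ccng1: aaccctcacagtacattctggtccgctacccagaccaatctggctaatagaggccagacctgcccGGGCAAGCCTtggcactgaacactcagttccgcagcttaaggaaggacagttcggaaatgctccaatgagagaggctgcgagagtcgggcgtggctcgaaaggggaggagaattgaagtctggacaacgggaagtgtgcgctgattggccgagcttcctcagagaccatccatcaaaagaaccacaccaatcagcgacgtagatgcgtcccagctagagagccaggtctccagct
Plk2: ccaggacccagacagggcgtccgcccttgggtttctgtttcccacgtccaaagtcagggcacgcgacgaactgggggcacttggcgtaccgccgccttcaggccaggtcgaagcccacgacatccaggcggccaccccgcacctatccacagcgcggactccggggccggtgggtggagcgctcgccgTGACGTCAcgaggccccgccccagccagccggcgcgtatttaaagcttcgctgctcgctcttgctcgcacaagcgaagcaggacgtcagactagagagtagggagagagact
Phlda3: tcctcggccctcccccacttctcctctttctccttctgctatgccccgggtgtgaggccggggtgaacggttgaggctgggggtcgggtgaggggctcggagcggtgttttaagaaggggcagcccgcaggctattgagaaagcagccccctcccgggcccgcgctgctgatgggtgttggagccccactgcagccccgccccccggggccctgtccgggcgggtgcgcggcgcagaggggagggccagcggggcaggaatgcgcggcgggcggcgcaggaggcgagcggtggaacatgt

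Cells were classed by hormone: beta where Ins1 and Ins2 made up at least 25% of a cell's transcripts, alpha at 3% Gcg and delta at 2% Sst. Non-endocrine cells had under 10% insulin, under 1% of each other hormone and at least 5 transcripts of immune, vascular, stromal or duct markers. The 4339 wild type and 3977 transgenic cells used gave 3198 and 2625 beta cells, 495 and 686 alpha cells, 145 and 250 delta cells, and 203 and 189 non-endocrine cells. Transcripts were counted as unique molecular identifiers (UMIs), and each level is UMIs summed over a class per 1000000 UMIs outside the 5 hormone genes (CPM). Nkx6-1, a beta cell factor, stood at 250 and 261 CPM in beta cells and at 40.1 and 45.5 in alpha cells, and Irx2, an alpha cell marker, at 67.9 and 96.8 in alpha against 1.96 and 3.27 in beta cells. Hhex, which marks delta cells, stood at 148 and 164 CPM in delta cells, while Mafa, a beta cell marker, was near 0 in beta cells (10 and 11 UMIs). The libraries differed in other ways: beta cells had a median of 50.4% insulin UMIs in the wild type and 60.5% in the transgenic library, and 0.288% and 0.362% immediate early UMIs. Cells with Xist and no Y-linked UMI were 0 of the wild type and 182 (6.93%) of the transgenic beta cells, and 25 cell barcodes occurred in both libraries.

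Across the 4 classes the members did not share a pattern. Trp53 was lowest in beta cells in both libraries. In the wild type it stood at 34.2 CPM in beta, 51.8 in alpha, 69.6 in delta and 110 in non-endocrine cells, and in the transgenic library at 41.4, 82.7, 89.9 and 70.7 in the same order. The interval of beta cells lay below those of the other 3 classes in both libraries, while those of delta and alpha cells overlapped in both. Mdm2, the negative regulator of p53, stood at 52.2 and 55.4 CPM in beta cells, 58.9 and 58.2 in alpha cells, 75.6 and 63.7 in delta cells and 148 and 112 in non-endocrine cells. Its beta and alpha intervals overlapped in each library, and only the non-endocrine level stood apart from all others. Taken as a ratio, beta was lower than alpha in the wild type (log2 -0.17, interval -0.33 to -0.01) and lower than delta (-0.53, interval -0.82 to -0.23). In the transgenic library both ratio intervals included 0.

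The arrest and repair genes Gadd45a and Xpc and the cyclin G1 gene Ccng1, whose product binds Mdm2, were not highest in the same cells. Gadd45a, a stress sensor that slows the cycle at G2, stood at 138 and 187 CPM in alpha cells against 65.4 and 66.6 in beta cells, and alpha was the highest class in both libraries with no overlap. Its relative Gadd45b stood at 147 and 217 CPM in beta, 268 and 461 in alpha, 177 and 261 in delta and 309 and 284 in non-endocrine cells, with beta lowest in both libraries. Ccng1 was lowest in non-endocrine cells (21.6 and 42.6 CPM), with beta at 57.9 and 63.6 and alpha at 71.0 and 62.6. In the transgenic library its delta and non-endocrine intervals overlapped. Xpc, whose product finds DNA lesions for nucleotide excision repair, had low levels of 7.96 to 18.2 CPM over the classes. Intervals of classes next to each other in rank overlapped throughout. In the transgenic library delta cells, at 16.7 CPM, still lay above beta cells, at 8.48 (beta over delta log2 -0.98, interval -1.48 to -0.44). In the wild type that ratio was -0.54 (interval -1.13 to 0.11). Bax, the pore-forming cell death protein, varied least among the members in the wild type, with the highest class 1.64 times the lowest.

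Plk2 and Gdf15 were concentrated outside the endocrine cells. Plk2, a kinase of the centrosome and of stress responses, stood at 240 and 68.8 CPM in non-endocrine cells against 13.5 and 7.96 in beta cells, and in the wild type library at 362 CPM in cells with most endothelial markers. Gdf15, a secreted stress cytokine, stood at 52.3 and 32.8 CPM in non-endocrine and at 2.37 and 1.38 in beta cells. Phlda3, whose product blocks the growth kinase Akt at the membrane, was lowest in delta cells, with 1 UMI in 145 wild type and 12 UMIs in 250 transgenic cells (0.76 and 5.42 CPM). Phlda3 levels in alpha cells were 17.2 and 14.2 CPM. In the wild type library beta cells, at 7.48, lay clear below alpha cells, while in the transgenic library, at 13.1, the intervals of both classes overlapped.

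**Figure D1:**
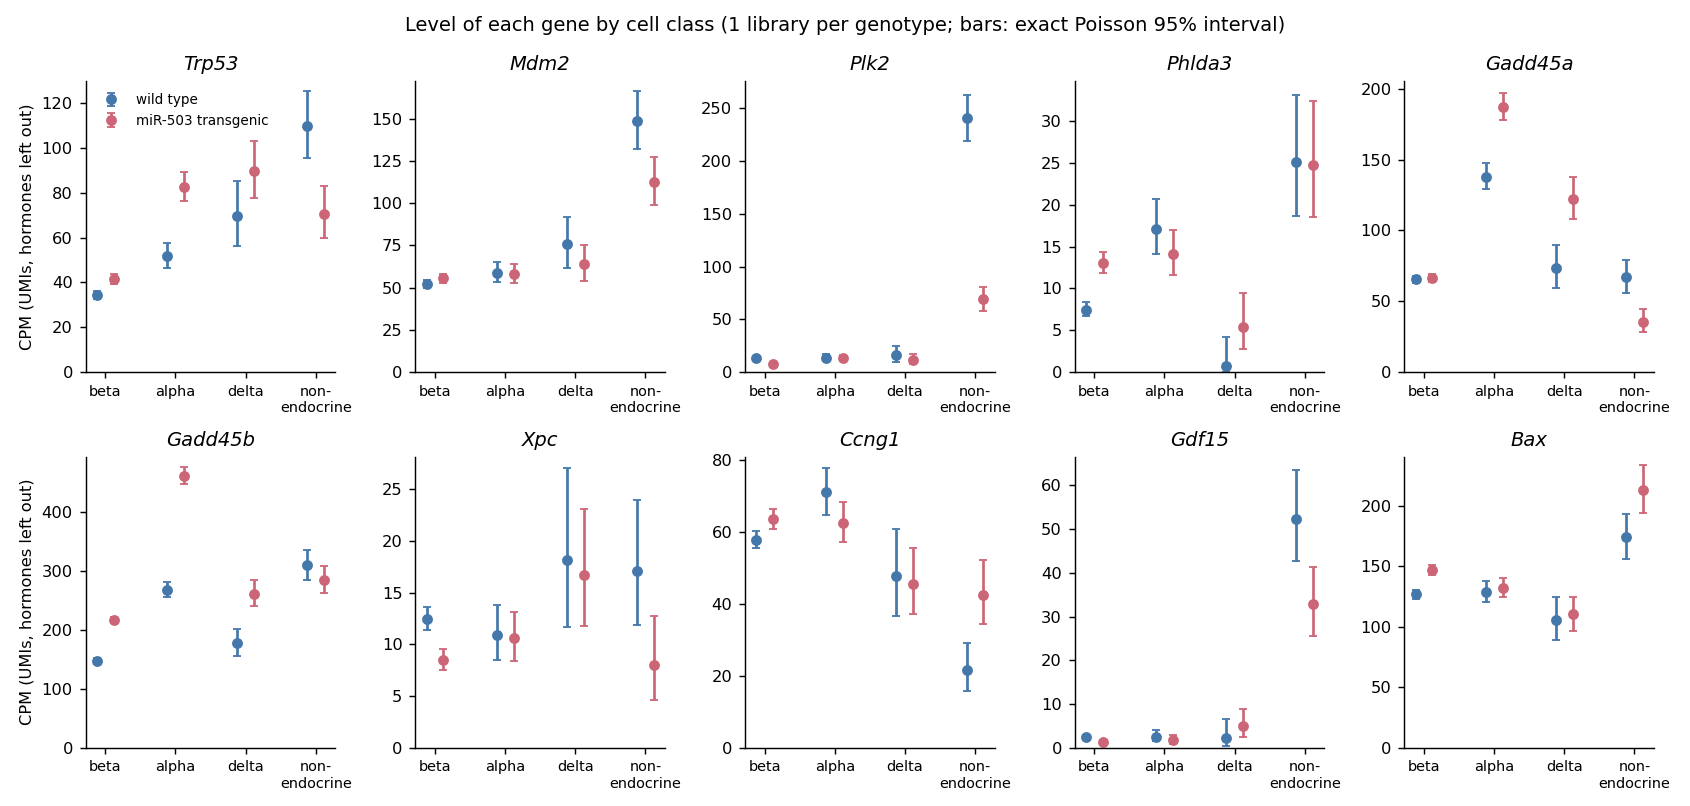
Level of each member in CPM outside hormones (y axis, linear from 0) by cell class (x axis) in the wild type (blue) and miR-503 transgenic (red) library, with exact Poisson 95% intervals and 1 library per genotype. Plk2 and Gdf15 sit highest in non-endocrine cells, at 240 and 52.3 CPM in the wild type, while Gadd45a sits highest in alpha cells.

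Beta cells were set against each other class within a library. Against alpha cells, no member was at least 1.5-fold higher in beta cells and 4 were at least 1.5-fold lower in each library, where 10.9% of all genes in the wild type and 13.5% in the transgenic library were that much lower and 29.9% and 30.7% that much higher. The median log2 ratio of beta over alpha was -0.23 and -0.29 for the members and 0.26 and 0.23 for all genes. Trp53, Gadd45a and Gadd45b were among the 4 in both libraries, Phlda3 completed them in the wild type (log2 -1.20, interval -1.52 to -0.87) and Plk2 in the transgenic library (-0.74, interval -1.07 to -0.40). These counts depend on the scale: with total UMIs, hormones included, 9 members in the wild type (all but Xpc, at -0.42) and 10 in the transgenic library were 1.5-fold lower in beta cells, beside 34.5% and 54.4% of all genes, and none was 1.5-fold higher, beside 11.2% and 8.95%. The median of all genes on that scale was -0.35 and -0.66. Against non-endocrine cells 6 members in the wild type and 5 in the transgenic library were 1.5-fold lower in beta cells, beside 22.3% and 21.6% of all genes, and 1 in each was 1.5-fold higher, beside 46.9% and 50.2%. Against delta cells 1 member in the wild type (Trp53) and 4 in the transgenic library (Trp53, Gadd45a, Xpc and Gdf15) were 1.5-fold lower, beside 19.8% and 20.2% of all genes, and Phlda3 was higher in both, beside 21.6% and 20.9%.

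Over all beta cells, Mdm2 and Gadd45a differed between the libraries by less than their counting error. In beta cells of the transgenic library Phlda3 was higher and Plk2 and Gdf15 were lower than in the wild type by more than 1.5-fold. These were 1 member higher and 2 lower out of 10, where 5.86% of 12906 genes with at least 50 UMIs were 1.5-fold higher and 4.37% lower, 10.2% in all. Whatever the size, 7 of the 10 were higher and 3 lower, where 6120 of the 12906 genes were higher. The members' median log2 ratio was 0.11 against -0.02 over all genes. With total UMIs as the scale, 2 members were higher and 8 lower, where the median of all genes was -0.33. Intervals lay above 0 for 5 members and below 0 for 3, and 51.5% of all genes had an interval that left out 0.

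Phlda3 went from 294 UMIs (7.48 CPM, interval 6.65 to 8.39) in wild type to 428 UMIs (13.1 CPM, 11.9 to 14.4) in transgenic beta cells, a 1.75-fold higher level (log2 0.81, interval 0.59 to 1.03). With every cell thinned to 3000 UMIs outside the hormones, 1.95% of wild type and 3.67% of transgenic beta cells had a Phlda3 UMI, and 6.35% and 11.2% before thinning. In delta cells thinned alike these shares were 0 of 145, which allows a share of up to 2.07%, and 0.40%. Before thinning they were 0.69% and 4%, with median depths of 7651 and 7646 UMIs outside the hormones against 11590.5 and 11527 in beta cells. The log2 ratio of the beta over the delta level was 3.31 (interval 0.82 to 8.61) in the wild type and 1.27 (interval 0.45 to 2.24) in the transgenic library. Cells with a Y-linked UMI and no Xist gave a Phlda3 log2 ratio of 0.62 (interval 0.37 to 0.87), and cells with 50% to 65% insulin gave 0.86 (0.56 to 1.17). Scaled by total UMIs, hormones included, the ratio was 0.50, under 1.5-fold, where the median of all genes was -0.33.

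Plk2 stood at 531 UMIs (13.5 CPM, interval 12.4 to 14.7) in wild type and 260 UMIs (7.96 CPM, 7.02 to 8.98) in transgenic beta cells, a log2 ratio of -0.76 (interval -0.98 to -0.55). Gdf15 stood at 93 and 45 UMIs, or 2.37 and 1.38 CPM, a log2 ratio of -0.78 (interval -1.33 to -0.25). Among beta cells with 50% to 65% insulin the Gdf15 ratio was -0.16 (interval -0.92 to 0.60), so its 1.5-fold difference was not seen there, while that of Plk2 was -1.04 (interval -1.33 to -0.75). Both genes are far more abundant in other cells whose free RNA can enter droplets, and endothelial markers summed to 37.3 CPM in wild type and 23.8 in transgenic beta cells, with all 6 detected in each. The most that endothelial, macrophage, alpha and delta cells could have brought in was set by 1 marker each. It was the marker lowest relative to its own cell type, among markers with at least 50 UMIs there. Alpha and delta cells had only Gcg and Sst, and the transgenic macrophage value rested on 3 Adgre1 UMIs. By these markers, 12.8% of wild type and 8.71% of transgenic Plk2 UMIs could have come from other cells. For Gdf15 UMIs the shares were 13.6% and 16.3%. Without those UMIs the log2 ratios were -0.70 for Plk2 and -0.83 for Gdf15.

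Xpc and Gadd45b lay just inside 1.5-fold. Xpc stood at 12.5 CPM in wild type and 8.48 in transgenic beta cells (490 and 277 UMIs, log2 -0.56, interval -0.77 to -0.34). Gadd45b stood at 147 and 217 CPM (5791 and 7083 UMIs, log2 0.56, interval 0.51 to 0.61). With each cell weighted alike, or in beta cells below the median immediate early share, both passed 1.5-fold and the count of members past it was 5. At 50% to 65% insulin Xpc was at -0.26, and scaled by total UMIs Gadd45b was at 0.25.

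Trp53 stood at 34.2 CPM in wild type and 41.4 in transgenic beta cells (log2 0.27, interval 0.16 to 0.38), Bax at 127 and 147 (0.21, interval 0.16 to 0.27) and Ccng1 at 57.9 and 63.6 (0.14, interval 0.05 to 0.22). The direction of these 3 flipped to -0.04, -0.10 and -0.18 when total UMIs set the scale, all still above the median of -0.33 that this scale gave over all genes. Mdm2 stood at 52.2 and 55.4 CPM (0.09, interval -0.01 to 0.18) and Gadd45a at 65.4 and 66.6 (0.03, interval -0.06 to 0.11). In cells with 50% to 65% insulin Mdm2 was at 0.22 (interval 0.09 to 0.34) and Gadd45a at 0.04 (interval -0.07 to 0.15). From 25% to 50% insulin they were at 0.29 (interval 0.11 to 0.48) and 0.19 (interval 0.01 to 0.37). Above 65% both intervals included 0. On the scale without hormones, the p53 gene differed between the libraries by 1.21-fold and Mdm2 by 1.06-fold.

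**Figure D2:**
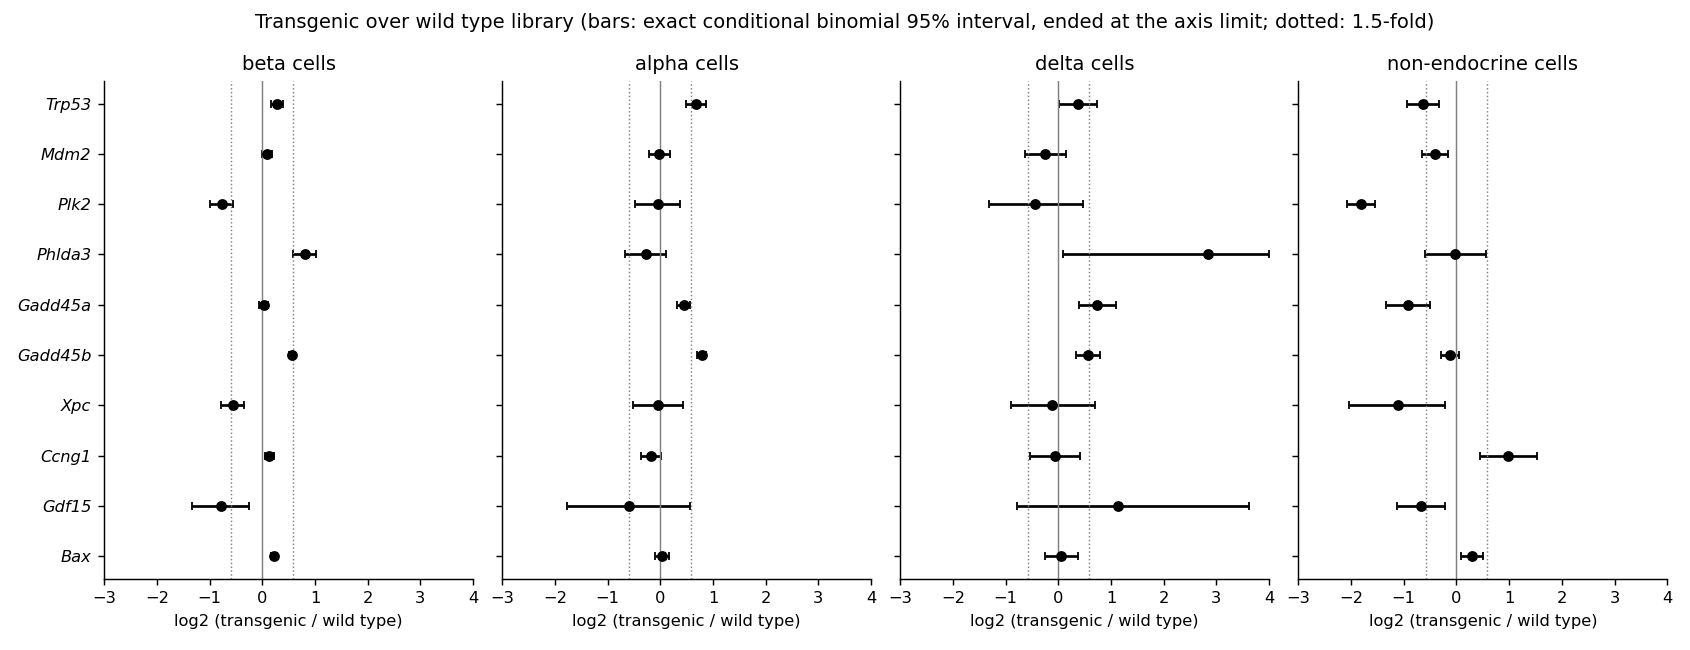
Log2 ratio of the transgenic over the wild type level (x axis) for each member (y axis) in 4 cell classes, with exact conditional binomial 95% intervals ended at the axis limits; dotted lines mark 1.5-fold. In beta cells Phlda3 lies at 0.81 and Plk2 at -0.76, Trp53 lies above 0 in the 3 endocrine classes (in beta cells it flips to -0.04 on the scale of total UMIs), and Plk2 lies at -1.81 in non-endocrine cells.

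In alpha cells, which the labels do not name as carrying the transgene, Trp53 and Gadd45b were also higher in the transgenic library and by more than in beta cells. Trp53 stood at 51.8 and 82.7 CPM (332 and 648 UMIs, log2 0.67, interval 0.48 to 0.87) and Gadd45b at 268 and 461 (1717 and 3615 UMIs, 0.78, interval 0.70 to 0.87). Gadd45a stood at 138 and 187 CPM (0.44, interval 0.32 to 0.56). These were the 3 members with an interval above 0, and none had one below 0. Among the 10253 genes with at least 50 UMIs in alpha cells, 2462 had an interval that left out 0, in either direction. Of the 9 members with that many UMIs, 2 were past 1.5-fold, both higher (Trp53 and Gadd45b). Beside them, 3.79% of genes were higher and 3.12% lower, 6.92% in all. Gdf15, on 16 and 13 UMIs and so under that minimum, was more than 1.5-fold lower (-0.59, interval -1.77 to 0.56). A single wild type alpha cell held 8 of the 16 Gdf15 UMIs, and with stricter hormone shares the Gdf15 ratio was 0.38.

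The difference between the classes was taken as the beta minus the alpha log2 ratio. It was 1.09 for Phlda3 (interval 0.65 to 1.52), whose alpha ratio was -0.28 (interval -0.67 to 0.12), and -0.71 for Plk2 (interval -1.18 to -0.25), whose alpha ratio was -0.05 (interval -0.47 to 0.38). Trp53 (-0.40, interval -0.62 to -0.18), Gadd45a (-0.41, interval -0.56 to -0.27) and Gadd45b (-0.23, interval -0.32 to -0.13) also had negative differences, as did Xpc (-0.51, interval -1.02 to -0.01). Ccng1 (0.32, interval 0.11 to 0.52) and Bax (0.18, interval 0.03 to 0.32) had positive ones. The intervals of these 8 of the 10 members left out 0, while those of Mdm2 (0.10, interval -0.11 to 0.32) and Gdf15 (-0.19, interval -1.36 to 0.98) included it. The share of all genes whose difference has such an interval was not computed, so the count has no background to be read against.

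In delta cells the same 3 members, Trp53 (92 and 199 UMIs, log2 0.37, interval 0.01 to 0.74), Gadd45a (97 and 271 UMIs, 0.74, interval 0.40 to 1.09) and Gadd45b (234 and 578 UMIs, 0.56, interval 0.34 to 0.79), had intervals above 0. Phlda3, on 1 and 12 UMIs and so under the minimum of 50, was the other (2.84, interval 0.08 to 8.26). Of all genes with at least 50 UMIs, 10.9% had an interval that left out 0. Of the 7 members with that many UMIs, Gadd45a alone was past 1.5-fold, beside 3.29% of genes higher and 2.94% lower, 6.23% in all. Phlda3 and Gdf15, the latter on 3 and 11 UMIs, were also past it but fell under that minimum. Of cells classed as delta, 83 wild type and 178 transgenic cells also had at least 2% Ppy, the hormone of gamma cells, and whether these are gamma cells was not tested. With stricter hormone shares the log2 ratios were 0.58 for Trp53 and 0.68 for Gadd45a, while those of Gadd45b and Phlda3 fell to 0.17 and 0.30 and that of Xpc went from -0.12 to 1.71.

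In non-endocrine cells Plk2, Trp53 and Gadd45a were lower and Ccng1 was higher in the transgenic library, which for Trp53 and Gadd45a is opposite to alpha and delta cells. Plk2 stood at 240 CPM in the wild type and 68.8 in the transgenic library (478 and 147 UMIs, log2 -1.81, interval -2.08 to -1.54), Trp53 at 110 and 70.7 (-0.63, interval -0.94 to -0.33), Gadd45a at 66.9 and 35.6 (-0.91, interval -1.34 to -0.49) and Ccng1 at 21.6 and 42.6 (0.98, interval 0.44 to 1.54). Past 1.5-fold were 1 member higher and 5 lower, beside 13.4% and 26.5% of all genes, 39.9% together. The makeup of this class moved with it: cells with most endothelial markers numbered 98 in the wild type and 22 in the transgenic library, macrophage cells 71 and 81, and B cells 19 and 52. Within macrophage cells the ratios were -1.37 for Plk2 (149 and 64 UMIs, interval -1.81 to -0.94), -0.94 for Trp53 (78 and 45 UMIs, interval -1.51 to -0.39) and -0.63 for Mdm2 (199 and 143 UMIs, interval -0.95 to -0.31). Gadd45b was higher in macrophage cells (0.35, interval 0.12 to 0.58), and Ccng1, on 16 UMIs in each, was at -0.15 (interval -1.24 to 0.95). Within endothelial cells Plk2 was -0.65 (298 and 43 UMIs, interval -1.15 to -0.19) and Trp53 was -0.25 (interval -1.04 to 0.46).

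Other genes of the pathway showed no shared direction in beta cells. Of 46 listed symbols, 44 were in the gene table and 41 had at least 50 UMIs; 16 were higher and 25 lower in the transgenic library, with a median log2 ratio of -0.04 against -0.02 over all genes. Past 1.5-fold were 3 higher and 0 lower, beside 5.86% and 4.37% of all genes, and 9 in all when total UMIs set the scale. Cdkn1a, the p21 gene, stood at 181 CPM in wild type and 149 in transgenic beta cells (7103 and 4860 UMIs, log2 -0.28, interval -0.33 to -0.23). The 12 regulators and kinases with enough UMIs had a median of -0.12, with 3 higher and 9 lower.

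The highest ratios among genes of that list with at least 100 UMIs were those of 4 genes. Apaf1, which builds the apoptosome, stood at 3.61 and 5.48 CPM (log2 0.60, interval 0.27 to 0.93) and Bbc3, the BH3-only protein PUMA, at 34.4 and 48.4 (0.49, interval 0.39 to 0.60). Rps27l, a ribosomal protein relative induced by p53, was at 0.33 and Dcxr, a sugar reductase, at 0.30. The lowest ratios, with the same minimum, were those of Ephx1, an epoxide hydrolase (-0.44, interval -0.77 to -0.12), Rfwd2, a ligase that marks p53 for degradation (-0.34), Rrm2b, a ribonucleotide reductase subunit (-0.34), and Sesn2, a stress sensor upstream of mTORC1 (-0.33). The other 2 genes past 1.5-fold, named after their values were seen, had under 100 UMIs: Ckap2 with 29 and 46 and Pidd1 with 32 and 42.

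Within single beta cells most members were unrelated to each other. Over 3175 wild type and 2613 transgenic beta cells thinned to 3000 UMIs outside the hormones, the 45 pairs had a median Pearson r of 0.003 and 0.01 for log2 of UMIs plus 1. The middle 90% of all pairs among 6214 genes lay between -0.03 and 0.03 in both libraries. Phlda3 with Ccng1 was the highest pair, at 0.15 in the wild type and 0.10 in the transgenic library, and Phlda3 with Bax followed at 0.04 and 0.06. Cells share library and depth, so these r are descriptions, and sparse counts keep them small.

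The genes most like a member were the 3 with the highest r, taking the lower of the 2 libraries, among genes seen in at least 5% of thinned beta cells. For Phlda3 all 3 were p53 targets: Cdkn1a (0.17 and 0.15), Ccng1 and Zmat3, a p53-induced RNA-binding protein (0.05 and 0.05). Cdkn1a and Aen, a p53-induced nuclease, were among the 3 most like Ccng1, after the abundant Tpt1. Plk2 was most like the immediate early genes Egr1 (0.08 and 0.08), Jun (0.07 and 0.08) and Ier2 (0.07 and 0.08). Gadd45b was most like Nfkbia, the inhibitor of NF-kB (0.20 and 0.20), Junb (0.20 and 0.18) and C2cd4b (0.19 and 0.15). Those of Trp53, Xpc and Bax reached at most 0.06, those of Mdm2 0.06 and those of Gadd45a 0.07.

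**Figure D3:**
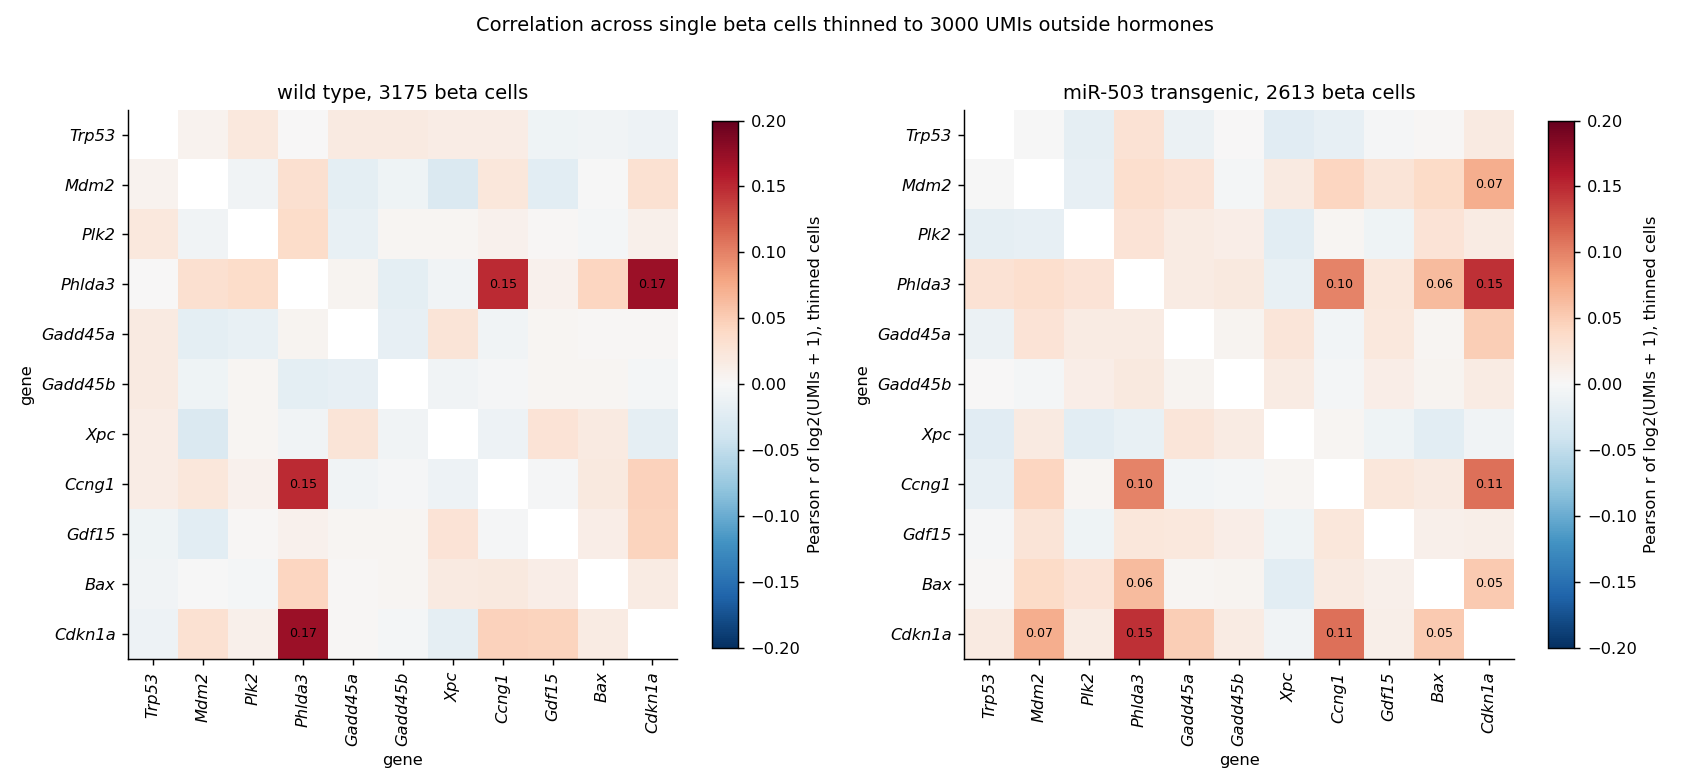
Pearson correlation of log2(UMIs + 1) between members, with Cdkn1a added, across thinned beta cells of the wild type (left, 3175 cells) and transgenic (right, 2613 cells) library; both axes list genes, and colour gives r from -0.2 (blue) to 0.2 (red). Phlda3 with Cdkn1a (0.17 and 0.15) and with Ccng1 (0.15 and 0.10) stand out, and most other pairs are near 0.

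Phlda3 UMIs were unevenly spread over beta cells in the wild type library. There its variance over its mean was 1.52 after thinning, above 99.0% of the 1990 genes of like mean. In the transgenic library the ratio was 1.06, above 86.8% of like genes. The wild type ratio rested on 62 of 3175 thinned cells with a Phlda3 UMI, so a few cells can set it. Before thinning the most Phlda3 UMIs in 1 beta cell were 10 in the wild type and 13 in the transgenic library. Cells with 2 or more Phlda3 UMIs numbered 52 (1.63%) of wild type and 85 (3.24%) of transgenic beta cells, against 2995 and 2331 with none. Their median depths outside the hormones were 13439 and 11788 UMIs, against 11508 and 11437 in cells with none. Median insulin shares were 47.6% and 59.9%, against 50.4% and 60.5%.

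In these cells some other p53 targets stood higher in both libraries. Cells were grouped by Phlda3, a choice made after its correlations were seen, so the values are a description. Among genes with at least 50 UMIs in the beta cells of a library, the log2 ratio of cells with 2 or more over cells with no Phlda3 UMI had an interval above 0 for 4 of 9 members in the wild type and 4 of 8 in the transgenic library (Mdm2, Plk2, Ccng1 and Bax in both), beside 4.18% and 4.24% of all genes. It lay below 0 for 0 and 1 of them, beside 2.26% and 2.98%. Of the listed targets that are not members, 8 of 25 and 9 of 24 lay above 0, and 1 in each lay below it, Gadd45g in the wild type (-0.19, interval -0.37 to -0.01) and Btg2 in the transgenic library (-0.54, interval -0.72 to -0.37). The listed regulators and kinases gave 1 of 12 (Ppm1d, a phosphatase that acts on p53) and 0 of 12 above 0. Cdkn1a stood at 166 CPM in wild type beta cells without Phlda3, 260 with 1 UMI and 669 with 2 or more, and in the transgenic library at 127, 263 and 393. Ccng1 stood at 52.0 CPM without and 202 with 2 or more in the wild type (log2 1.96, interval 1.71 to 2.20), and at 54.7 and 185 in the transgenic library (1.75, interval 1.54 to 1.96). The nuclease gene Aen stood at 29.2 and 92.4 CPM in the wild type and at 25.8 and 79.2 in the transgenic library. By fold, Cdkn1a, Ccng1 and Aen ranked 11, 12 and 17 of 7528 genes with at least 10 UMIs in these wild type cells, and 21, 18 and 22 of 8750 in the transgenic library.

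Bax stood at 123 CPM without Phlda3 and 230 with 2 or more UMIs in the wild type (log2 0.90, interval 0.67 to 1.12) and at 141 and 226 in the transgenic library (0.69, interval 0.50 to 0.86). Mdm2 had log2 ratios of 0.57 (interval 0.17 to 0.94) and 0.78 (0.48 to 1.06), Plk2 of 1.36 (0.71 to 1.94) and 0.94 (0.14 to 1.66), Zmat3 of 0.71 and 0.63, and Rps27l of 0.65 and 0.71. Trp53 itself stood at 34.1 and 38.3 CPM in the wild type (log2 0.17, interval -0.42 to 0.69) and 41.4 and 36.6 in the transgenic library (-0.18, interval -0.65 to 0.26). Gadd45a (0.31 and 0.09) had intervals that included 0 in both libraries, and Gadd45b was at -0.00 and -0.28, the second with an interval of -0.49 to -0.09. Summed over these cells, Cdkn1a, Ccng1, Aen, Bax and Mdm2 were each higher, while Trp53 and both Gadd45 genes were not higher beyond counting error. Whether the same cells of this group were high for all 5 was not looked at.

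**Figure D4:**
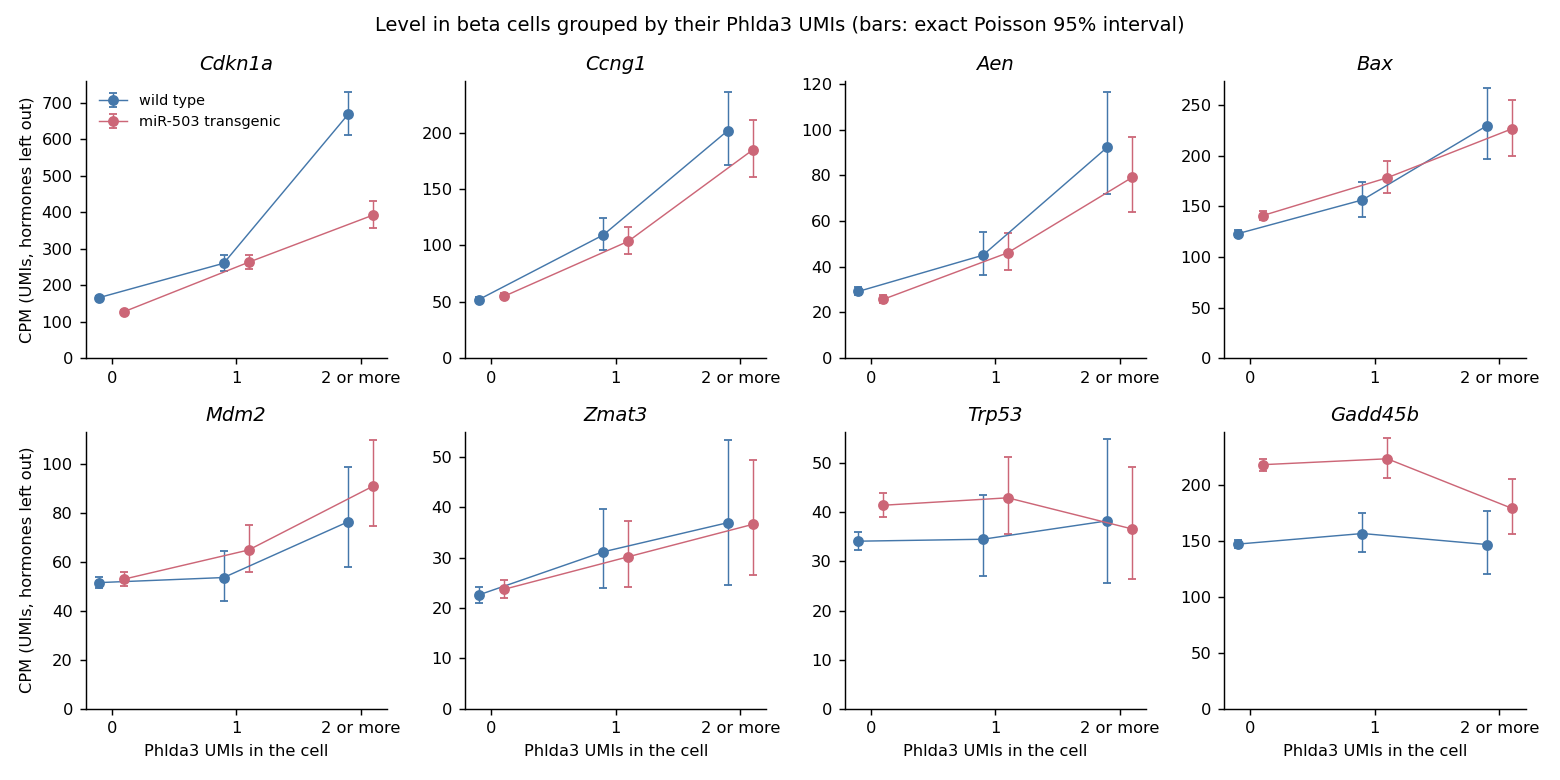
Level in CPM outside hormones (y axis, linear from 0) of 8 genes in beta cells with 0, 1 or 2 or more Phlda3 UMIs (x axis), in the wild type (blue) and transgenic (red) library, with exact Poisson 95% intervals. Cdkn1a stands at 166 CPM without Phlda3 and 669 with 2 or more in the wild type, while Trp53 intervals overlap across the groups.

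Plk2 and Gadd45b were highest in beta cells with the most immediate early RNA. These are genes such as Fos, Jun and Egr1 that answer within minutes to stimulation or handling, dissociation included, and beta cells of both libraries were put into 4 bins of equal size by the share of 10 such genes, pooled over libraries. Plk2 stood at 6.68, 9.19, 16 and 20.6 CPM from bin 1 (lowest) to bin 4 in the wild type, and at 4.67, 4.64, 7.16 and 13.6 in the transgenic library. Gadd45b went from 98.2 to 224 and from 177 to 285 CPM between bins 1 and 4. Ccng1 ran the other way, from 69.4 to 45.6 and from 83.6 to 44.3 CPM.

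Within each bin Plk2 was lower in the transgenic library, with log2 ratios of -0.52, -0.99, -1.16 and -0.59, although the interval of bin 1 (-1.21 to 0.15) included 0. The Phlda3 ratio was above 0 in each bin, at 1.17, 0.52, 1.05 and 0.57, with intervals that left out 0. That of Gadd45b was 0.85 in bin 1 and 0.35 in bin 4. The transgenic library held more cells in bin 3 (29.8% against 21.0%) and fewer in bin 1 (21.1% against 28.2%).

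**Figure D5:**
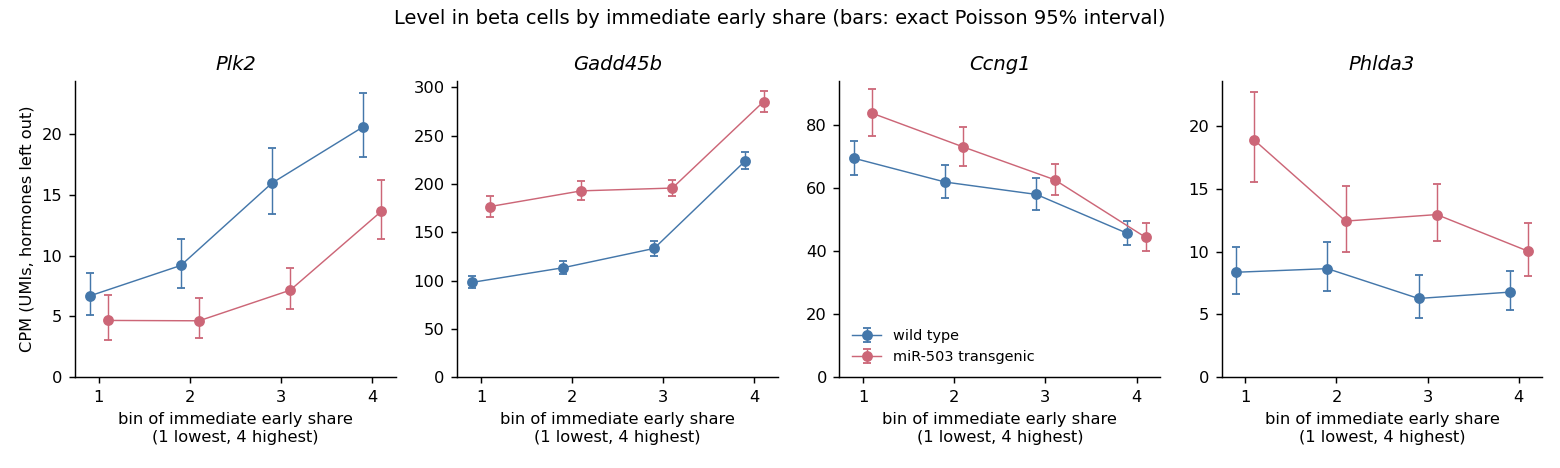
Level in CPM outside hormones (y axis, linear from 0) of Plk2, Gadd45b, Ccng1 and Phlda3 in beta cells by bin of immediate early share (x axis, 1 lowest to 4 highest), in the wild type (blue) and transgenic (red) library, with exact Poisson 95% intervals. Plk2 and Gadd45b are highest in bin 4, at 20.6 and 224 CPM in the wild type, and Ccng1 is lowest there.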

How the data were processed

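Per the labels' protocols, single islet cells were loaded on a 10x Chromium with its 3 prime chemistry. The authors deposited counts, the UMIs of each gene in each cell, which per the submitters' processing notes came from Cell Ranger 2.1.0, STAR 2.5.1b and build mm10. The depth of a cell lay between 5727 and 88243 UMIs (wild type) or 6671 and 94943 (transgenic). Cells with at least 500 genes, 1000 UMIs and at most 10% mitochondrial UMIs were kept, and the top 4% of Scrublet scores (181 and 166 cells) were removed, since the automatic threshold marked 2 and 6. Cells meeting 2 hormone limits (62 and 101) and unclassed cells (236 and 126) were set aside. Counts were summed per class. Levels carry exact Poisson, ratios exact conditional binomial and shares exact Clopper-Pearson 95% intervals, for counting error only. The ratio intervals were tested on simulated Poisson counts, so that test could not show extra spread between cells. A 0 count allows up to 3 counts. Python 3.11.15, scipy 1.17.1, scanpy 1.11.5 and edgeR 4.0.16 (for TMM scaling) were used.

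The members and lists were chosen with earlier results of these data known. Named were all members, Cdkn1a, the 4 highest and 4 lowest other pathway genes with at least 100 UMIs, and the 3 genes most like each member with at least 200 UMIs in beta cells of each library. Alternatives were other scaling, cell filters, class limits, weights, thinning and count minimums.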

Additional observations from a re-analysis of the deposited data

Results flagged for a closer look

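Trp53 was higher in the transgenic library in beta (log2 0.27), alpha (0.67) and delta cells (0.37) and lower in non-endocrine cells (-0.63). Gadd45a was higher in alpha (0.44) and delta cells (0.74) and lower in non-endocrine cells (-0.91). These stand out because the single libraries moved in opposite directions in different classes, and the difference between classes was not tested. The makeup of the non-endocrine class differed (98 and 22 cells with most endothelial markers, 19 and 52 with most B cell markers), and its part in these results was not tested. Within macrophage cells alone Trp53 was at -0.94 and Gadd45a at -1.10. In the smaller groups every interval included 0. Trp53 and Gadd45a were at -0.25 and -0.13 in endothelial cells, at -0.50 and -0.04 in B cells and at 0.17 and 0.25 in stellate or fibroblast cells.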

How the results depend on the processing

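No paired analysis was possible because each genotype has 1 library and no replicate numbers. In beta cells, TMM scaling, no doublet removal, stricter hormone shares and cells with a Y-linked UMI and no Xist left all 10 log2 ratios inside their intervals. At 50% to 65% insulin 5 of the 10 moved outside them. Scaling by total UMIs put the median of all genes at -0.33, with 3.06% of genes 1.5-fold higher and 16.6% lower. It reversed Trp53 (-0.037), Ccng1 (-0.18) and Bax (-0.10) in beta cells and the beta over alpha ratio of Bax in the transgenic library (-0.73). It also put the members' median at -0.20, the other pathway genes' median at -0.35 and 9 of those genes past 1.5-fold. Members past 1.5-fold were 5 with each cell weighted alike and 5 in cells below the median immediate early share. Pathway genes past it were 1 at 50% to 65% insulin and 5 when any gene with a UMI in both libraries counted. Of all genes, 17.1% were past it at a minimum of 10 UMIs and 2.91% at 50 UMIs and 20 CPM. The wild type median correlation was 0.039 without thinning; the cause was not tested for any of these. Removing UMIs that could come with markers of other cells, chosen after seeing the data, left 3 members past 1.5-fold and a median of 0.11. Gdf15 in endocrine cells and Phlda3 in delta cells are limited by depth.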

Other observations

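Genes with the highest fold in beta cells with 2 or more over those with no Phlda3 UMI are named here after their values were seen. Fam212b was among the 3 highest in both libraries (log2 3.59 on 24 UMIs in the wild type and 2.67 on 26 UMIs in the transgenic library). In the wild type library the peptide genes Cck (3.91, 156 UMIs), Npy (3.65, 86 UMIs) and Gast (2.92, 76 UMIs), the acinar marker Cpa1 (2.46, 15 UMIs) and Spp1, a duct cell marker (2.06, 51 UMIs), were also among the highest. The most in any 1 cell, taken for each gene on its own, was 147 UMIs of Cck, 59 of Npy, 70 of Gast, 14 of Cpa1 and 25 of Spp1. Whether these were the same cell was not looked at. In the transgenic library the same fold was 0.14 for Cck, -1.30 for Npy, -1.17 for Gast, -0.06 for Cpa1 and 0.15 for Spp1, each with an interval that included 0. In the transgenic library the dividing-cell genes Cdkn3 (2.61, 10 UMIs), Mki67 (13 UMIs) and Nusap1 (2.23, 10 UMIs) were among the highest. So were Knstrn (2.23, 20 UMIs), Mad2l1 (2.15, 14 UMIs) and Cdca3 (2.12, 20 UMIs). Few of the 85 cells held them: Cdkn3, Nusap1 and Cdca3 were seen in 3 cells each, Mki67 in 6, Knstrn in 7 and Mad2l1 in 8. The most in any 1 cell, again taken for each gene on its own, was 6 UMIs of Cdkn3, 4 of Mki67 and 7 of Nusap1. It was 11 of Knstrn, 4 of Mad2l1 and 18 of Cdca3. The wild type cells had 1 UMI each of Mki67 and Cdca3 and 0 of the others. The p53 target Eda2r, a receptor of the TNF family below the count minimum of 50, had 5 UMIs in wild type and 28 in transgenic beta cells (log2 2.75, interval 1.36 to 4.48), and Psrc1, a spindle protein gene, had 12 and 33 (1.73, interval 0.73 to 2.81).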
